A study of Homo sapiens with 6 samples.

Results

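The genes described here are 7 readers and writers of histone acetylation, BRD2, BRD3, EP300, CREBBP, KAT2A, KAT6A and KAT7, of 29810 genes measured by RNA sequencing in the human leukaemia line Kasumi-1. They were chosen by name, by a rule that used no measured values, though with earlier results of these data known. All 7 were found in the table and passed the filter on low values. Kasumi-1 is an acute myeloid leukaemia line of immature myeloblasts that carries the t(8;21) fusion of RUNX1 and RUNX1T1. The design has 2 groups, 3 samples kept with control for 48 h and 3 kept for 48 h with 0.125 µM of the agent labelled I1, whose chemical identity the labels leave unnamed. All 6 samples are of this line, and the labels name no other agent, allele or genotype. What the control consisted of, and whether the replicates were grown as separate cultures, is not in the labels either. The p-values then reflect the spread between these 6 samples alone, and that spread may be technical.

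Lysine acetylation of histone tails marks active promoters and enhancers. Histone acetyltransferases write the mark, and the BET proteins, among them BRD2 and BRD3, bind acetylated lysines through paired bromodomains and help to bring in the transcription machinery, including the elongation kinase P-TEFb. In acute myeloid leukaemia BET inhibitors are known to lower MYC and other genes with large enhancers, and EP300, CREBBP and KAT6A are partners in recurrent leukaemic fusions.

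Levels are given as FPKM, which scales the fragments of a gene to its length and to the library total, so genes can be set side by side and a level is a share of the RNA. In bulk RNA a lower share of cells that express a gene and less of its RNA per cell cannot be told apart. Library totals lay between 16391000 and 18204000 fragments. Control replicate 1 stood apart from the other libraries, at -43.8 on the first principal component (52.1% of the variance) against -2.90 to 19.8, and its GC-rich genes had higher levels than those of the remaining controls. Across 11899 genes, which are not independent, the log2 fold change with I1 fell with GC content (Spearman's rho -0.753). Values without control replicate 1 and after a correction for GC content are therefore set beside many of the results. The identity markers of the line were present, with MPO, the myeloid peroxidase, at 6361 to 9392 FPKM and KIT at 149.5 to 203.3. Of 13 markers of other cell types 10 were in the table, and their summed level was 27.1 to 30.6 FPKM in control and 29.9 to 34.4 with I1. EPCAM, an epithelial adhesion molecule, made up most of it at 25.0 ± 2.33 and 28.4 ± 2.49 FPKM (SD, n = 3 each). PECAM1, the other of these markers that passed the filter on low values, had 2.40 ± 0.498 and 1.81 ± 0.666 FPKM. The T cell, keratin and collagen markers CD3E, KRT18 and COL1A1 were each below 0.1 FPKM in all libraries. This did not hold for every remaining marker of the list.

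None of the 7 genes passed the test for I1 against control. A call needed a limma adjusted p under 0.05 and a log2 fold change beyond 1 or -1. Of the 11913 tested genes 0.0336% cleared this bar, and none of those was protein-coding. The smallest limma adjusted p of any protein-coding gene was 0.383. The lack of a call among the 7 was thus shared by all tested protein-coding genes. At an unadjusted p under 0.05 it was again 0 of 7, against 9.57% of tested genes. Their log2 fold changes, on the scale of log2(FPKM + 1), lay between -0.044 for BRD2 and 0.24 for KAT6A, with a median of 0.063 beside 0.034 over all tested genes. That median was -0.0072 without control replicate 1, with 3 of 7 above 0, and 0.12 after the GC correction, with 6 of 7 above 0. The 95% intervals of all 7 excluded a doubling and a halving (log2 values of 1 and -1), the widest reaching from -0.37 to 0.46 for CREBBP and up to 0.61 for KAT6A. Values were higher with I1 for 5 of the 7 genes, and for 54.5% of all tested genes.

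**Figure D1:**
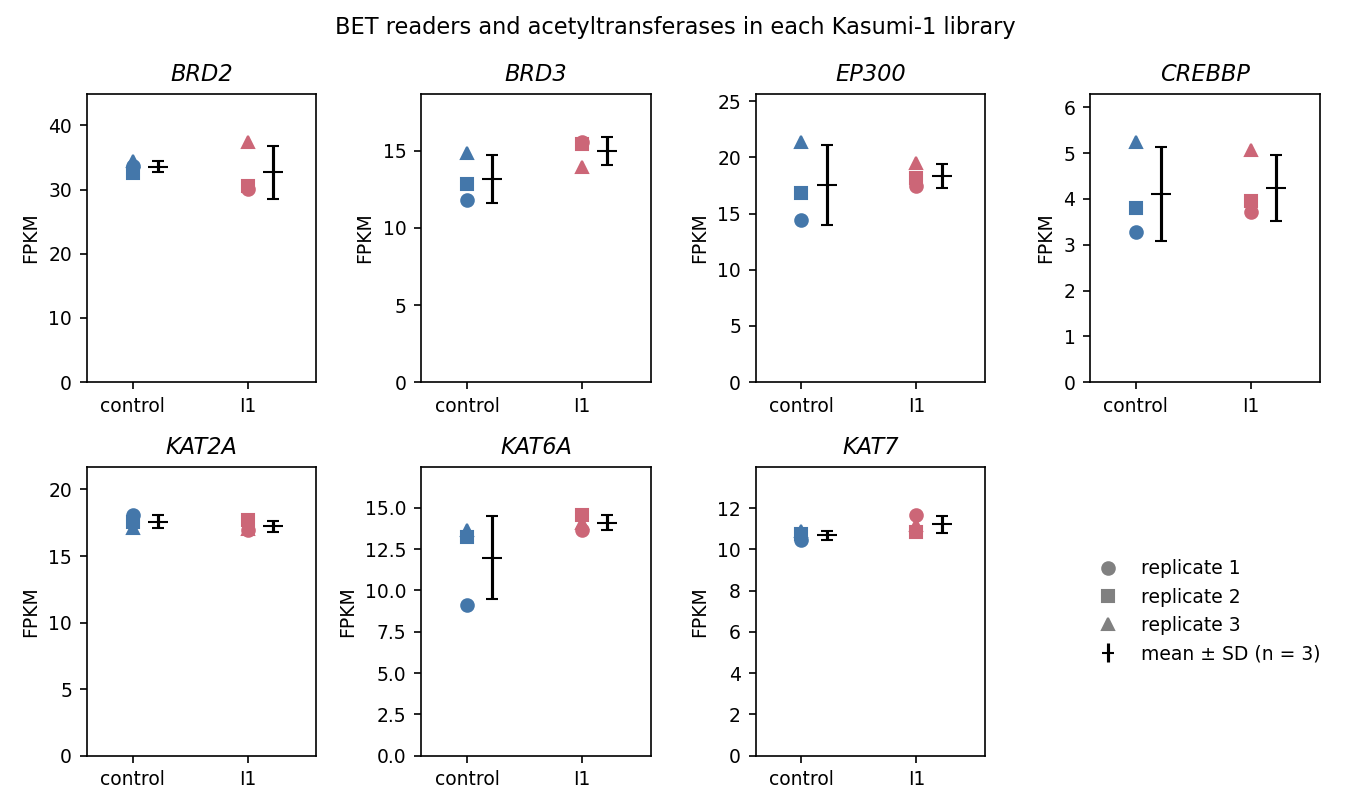
FPKM of each gene in the 6 libraries, with control in blue and I1 in red, the replicate number by symbol, and the mean ± SD (n = 3) beside the points. KAT2A and KAT7 sit close together in all libraries, and KAT6A is low in control replicate 1 alone, at 9.10 FPKM.

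BRD2 was the most abundant of the 7 genes at 33.1 FPKM over the 6 libraries, above 89.1% of the tested protein-coding genes by its control mean. EP300 and KAT2A followed at 17.9 and 17.4 FPKM, and their ranges overlapped. BRD3, KAT6A and KAT7 came next at 14.1, 13.0 and 11.0 FPKM, each with a range that overlapped that of its neighbour in this order. CREBBP was the lowest at 4.17 FPKM, below KAT7 in 6 of 6 libraries. BRD2 lay above EP300, and KAT2A above BRD3, in 6 of 6 libraries with no overlap of the ranges.

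Among the BET readers, BRD2 (ENSG00000204256; chromosome 6, 32968660 to 32981505, plus strand, hg38) had 33.6, 32.6 and 34.5 FPKM in control replicates 1 to 3 and 30.01, 30.59 and 37.46 with I1. The groups overlapped, since I1 replicate 3 was the highest of all libraries and the other I1 libraries were the lowest. The control mean was 33.6 ± 0.913 and the I1 mean 32.7 ± 4.15 FPKM (SD, n = 3 each), so the spread among the I1 libraries exceeded the difference. The log2 fold change was -0.044 ± 0.124 (SE; 95% interval -0.33 to 0.24; limma adjusted p = 0.863) and turned to 0.058 after the GC correction and to 0.012 without I1 replicate 1. BRD2 lies in the MHC class II region and overlaps 2 annotated genes on the other strand, HLA-DMA among them, and 1 on its own strand, AL645941.1. The sources used here do not state whether counting used strand, so reads of overlapping genes may not be separated. For a gene on the same strand, strand could not separate them in any case. Each of the 7 genes overlaps some annotated gene. Among these are FAM117A for KAT7 and EP300-AS1 for EP300, on the other strand, and AC099811.2 for KAT2A, on the same strand.

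BRD3 (ENSG00000169925; chromosome 9, 134030305 to 134068535, minus strand) had 11.8, 12.8 and 14.8 FPKM in control and 15.6, 15.5 and 13.9 with I1. The I1 libraries of replicates 1 and 2 were above all controls, and I1 replicate 3 was below control replicate 3. The means were 13.2 ± 1.54 and 15.0 ± 0.917 FPKM, a log2 fold change of 0.18 ± 0.125 (SE; 95% interval -0.11 to 0.47; adjusted p = 0.512). It was 0.11 without control replicate 1. The gene overlaps its antisense partner BRD3OS, with the same limit on strand.

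BRDT, the testis member of the BET family, is outside the 7 genes and had 0 reads in all 3 controls and in 2 of the I1 libraries, and 2 reads in I1 replicate 3. A floor of 3 reads corresponds to 0.0380 to 0.0422 FPKM for this gene, so a level below that was not detectable at this depth.

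EP300 and CREBBP encode the paired coactivators p300 and CBP, which acetylate histone H3 at lysines of enhancers and bind many transcription factors. EP300 (ENSG00000100393; chromosome 22, 41091786 to 41180079, plus strand) had 14.4, 16.8 and 21.4 FPKM in control and 17.4, 18.1 and 19.5 with I1. All 3 I1 values lay within the range of the controls. The means were 17.5 ± 3.56 and 18.3 ± 1.03 FPKM, with a log2 fold change of 0.078 ± 0.154 (SE; 95% interval -0.28 to 0.43; adjusted p = 0.799).

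CREBBP (ENSG00000005339; chromosome 16, 3725054 to 3880726, minus strand) had 3.27, 3.79 and 5.25 FPKM in control and 3.71, 3.96 and 5.06 with I1. Replicate 3 was the highest library of each group for both genes, and replicate 1 the lowest. The means of CREBBP were 4.10 ± 1.03 and 4.24 ± 0.717 FPKM, a log2 fold change of 0.049 ± 0.180 (SE; adjusted p = 0.898). The highest library exceeded the lowest 1.61-fold for CREBBP and 1.49-fold for EP300, against ratios of the group means of 1.03 and 1.05. Without control replicate 1 the log2 fold changes of EP300 and CREBBP were -0.047 and -0.070, and with array weights -0.14 and -0.17. The block on replicate number narrowed the intervals to -0.17 to 0.33 for EP300 and -0.21 to 0.31 for CREBBP. It ended with 0 of the 7 genes called, where 0.0504% of all tested genes were called with the block. None of the genes called was protein-coding, the smallest limma adjusted p of a protein-coding gene with the block being 0.129.

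KAT2A, also called GCN5, is the acetyltransferase of the SAGA and ATAC coactivator complexes. KAT2A (ENSG00000108773; chromosome 17, 42113108 to 42121358, minus strand) had 18.1, 17.5 and 17.1 FPKM in control and 17.0, 17.7 and 17.0 with I1. The groups overlapped, and the highest library exceeded the lowest 1.06-fold. The means were 17.6 ± 0.479 and 17.2 ± 0.423 FPKM, with a log2 fold change of -0.027 ± 0.104 (SE; 95% interval -0.27 to 0.21; adjusted p = 0.904). Its transcript is the richest in GC of the 7, at 59.9%, and the GC correction turned the log2 fold change to 0.15 (95% interval -0.075 to 0.37; adjusted p = 0.953). With the block on replicate number as well, the interval was 0.010 to 0.28 and left out 0 (limma unadjusted p = 0.039, adjusted p = 0.289). In that setting 1931 of the 11913 tested genes had an unadjusted limma p under 0.05.

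KAT6A, also called MOZ, and KAT7, also called HBO1, belong to the MYST family. Both work in complexes with BRPF and ING subunits, and KAT7 also in complexes with JADE subunits. KAT6A is needed for blood stem cells. KAT6A (ENSG00000083168; chromosome 8, 41929479 to 42052026, minus strand) had 9.10, 13.2 and 13.6 FPKM in control and 13.7, 14.6 and 14.1 with I1. It was the 1 gene of the 7 whose groups did not overlap, all I1 values being higher, as for 12.9% of the tested genes. For 0 of the 7 genes were all I1 values lower, against 8.74% of tested genes. The lowest I1 value, 13.67, lay just above the highest control value, 13.65, and control replicate 1 was far below the rest. The means were 11.99 ± 2.51 and 14.1 ± 0.445 FPKM, a log2 fold change of 0.24 ± 0.160 (SE; 95% interval -0.13 to 0.61; adjusted p = 0.504). Without control replicate 1 it was 0.066 ± 0.0957 (adjusted p = 0.888), and after the GC correction 0.12. In the same-numbered pairs I1 exceeded control 1.502-fold, 1.102-fold and 1.032-fold.

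KAT7 (ENSG00000136504; chromosome 17, 49788555 to 49835030, plus strand) had 10.4, 10.7 and 10.9 FPKM in control and 11.7, 10.8 and 11.2 with I1. Only I1 replicate 2 lay within the control range. The means were 10.7 ± 0.218 and 11.2 ± 0.420 FPKM, with a log2 fold change of 0.063 ± 0.106 (SE; 95% interval -0.18 to 0.31; adjusted p = 0.763). It was -0.035 after the GC correction. KAT6A and KAT7 were higher with I1 in 3 of 3 pairs, as were 32.1% of all tested genes, and 0 of the 7 were lower in all 3 pairs, against 25.8%.

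**Figure D2:**
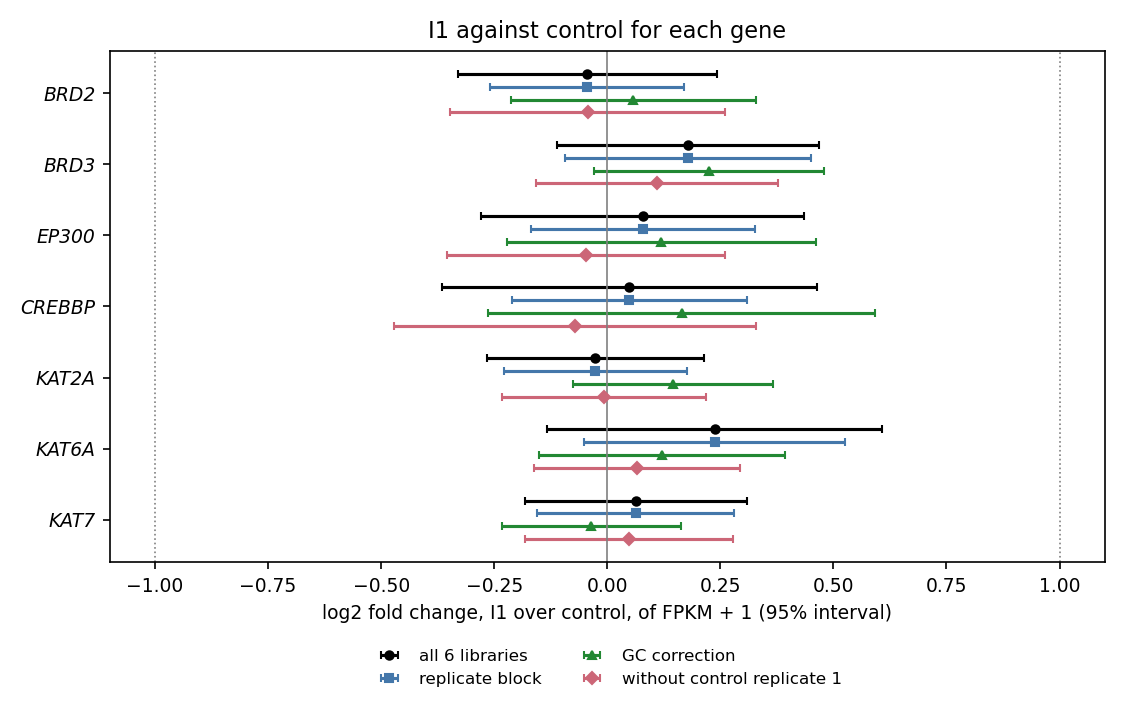
Log2 fold change of FPKM + 1, I1 over control, for each gene with its 95% interval, from all 6 libraries, with the replicate number as a block, after GC correction and without control replicate 1. All intervals lie inside the dotted lines at -1 and 1, and the value of KAT6A goes from 0.24 to 0.066 without control replicate 1.

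The 7 genes were not equally even across the libraries. The SD of log2 values within groups was 0.035 for KAT2A and 0.040 for KAT7, beside a median of 0.18 for protein-coding genes with control means from 3 to 35 FPKM. Of these genes, 0.381% had a lower SD than KAT2A and 0.558% a lower one than KAT7. An SD from 3 libraries per group is itself imprecise, and counting noise was not separated from it. BRD2 and BRD3 had 0.12 each. EP300, KAT6A and CREBBP had 0.20, 0.21 and 0.24, above 56.6% to 69.6% of those genes. Reads of the gene in a library numbered 922 to 1439 for CREBBP and 1049 to 1240 for KAT2A, so similar depth lay behind the most and the least variable of the 7.

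Ratios of the FPKM of related genes within a library do not depend on how that library was scaled. The log2 ratios tested are differences of log2(FPKM + 1), which are smaller than those of FPKM where a gene is low. KAT6A and its paralog KAT6B, also called MORF, had a ratio of FPKM of 1.03, 1.06 and 1.04 in control and 1.04, 1.05 and 0.982 with I1. The ratio was thus nearly constant, although KAT6B was low in control replicate 1 as KAT6A was, at 8.85 FPKM against 12.5 to 14.3 in the other 5 libraries. The log2 ratio averaged 0.052 ± 0.018 for control and 0.034 ± 0.051 for I1 (2-sided exact permutation p = 0.80). The transcripts of both have a similar GC content, 45.4% and 45.3%.

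EP300 exceeded CREBBP 4.40-, 4.43- and 4.07-fold in control and 4.69-, 4.58- and 3.85-fold with I1, so the groups overlapped. The difference of the log2 ratios was 0.029 (exact permutation test, 2-sided p = 0.80) and turned to -0.046 after the GC correction. BRD2 exceeded BRD3 2.84-, 2.54- and 2.32-fold in control and 1.93-, 1.98- and 2.69-fold with I1, a difference in log2 ratio of -0.22 (p = 0.30 by the same exact test). I1 replicates 1 and 2 lay below all controls and I1 replicate 3 did not. The difference went from -0.37 without I1 replicate 3 to -0.14 without I1 replicate 1.

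KAT2A exceeded its paralog KAT2B, also called PCAF, 13.2-, 9.72- and 9.37-fold in control and 6.82-, 9.10- and 8.56-fold with I1. All 3 I1 ratios were lower than all control ratios, with a difference in log2 ratio of -0.26 (2-sided exact permutation p = 0.10, the least that 3 against 3 can give; adjusted over the 5 pairs of genes compared, p = 0.25). KAT2B had 1.66 ± 0.260 FPKM in control and 2.14 ± 0.303 with I1, while KAT2A differed little. The difference in log2 ratio was -0.16 without control replicate 1 (exact permutation p = 0.20), -0.18 without I1 replicate 1 (exact permutation p = 0.30) and -0.38 with a pseudocount of 0.1. The GC contents are 44.3% for KAT2B and 59.9% for KAT2A, and after the GC correction the difference was 0.054 (exact permutation p = 0.90). KAT7 and KAT5, the acetyltransferase of the TIP60 complex, had a ratio of 1.52, 1.72 and 1.69 in control and 1.81, 2.08 and 1.84 with I1, again with no overlap (difference in log2 ratio 0.19, exact permutation p = 0.10, adjusted over the 5 pairs p = 0.25). The GC contents were 46.0% and 58.6%, and after the GC correction this difference was -0.065 (exact permutation p = 0.60). With the same-numbered libraries as pairs, the exact sign-flip permutation p was 0.25 for KAT2A to KAT2B and for KAT7 to KAT5 alike, the smallest that 3 pairs can give.

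**Figure D3:**
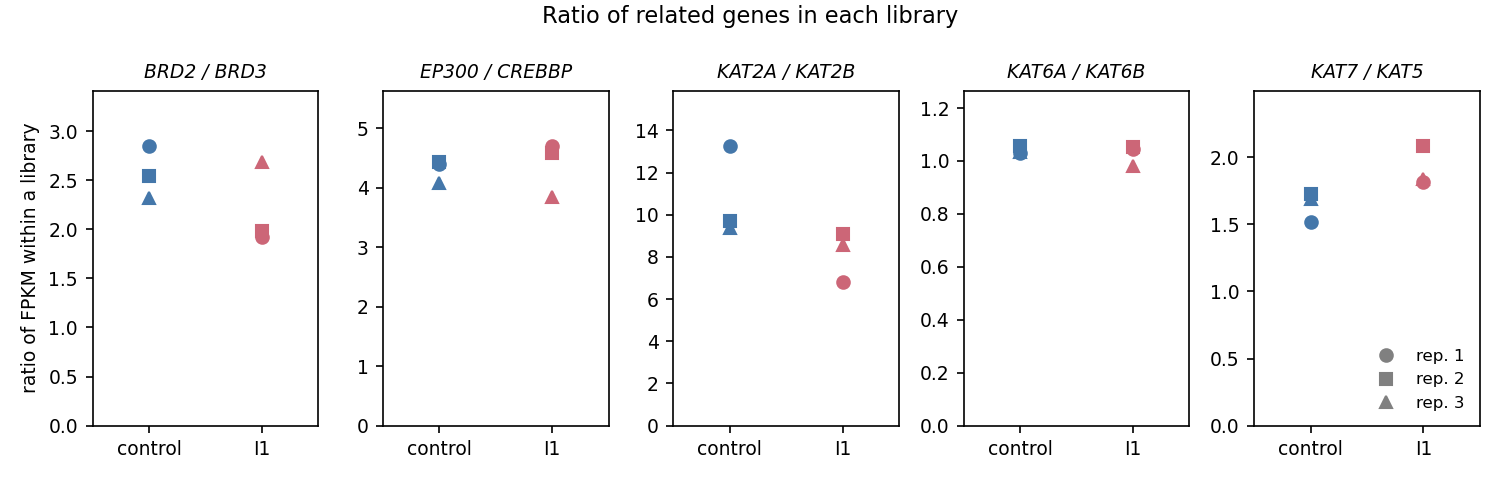
Ratio of the FPKM of 2 related genes within each library, control in blue and I1 in red, with the replicate number by symbol. KAT6A and KAT6B stay near a ratio of 1 in all libraries (0.982 to 1.06), and the groups do not overlap for KAT2A to KAT2B and for KAT7 to KAT5.

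The genes whose pattern across the 6 libraries was most like that of each of the 7 were taken by the smallest root mean square difference of mean-centred log2 values, among tested protein-coding genes. For KAT6A these were PRR14L and ENTPD4, at 0.018 and 0.021, where KAT6A itself varied by 0.21 about its mean. PRR14L too was low in control replicate 1, at 11.3 FPKM against 16.3 to 17.8 in the other libraries. For EP300 they were TRIO and UFSP2 (0.027 and 0.031, against 0.17 for its own variation). CREBBP was most like YEATS2, a subunit of the ATAC complex, and LRP8 (0.038 and 0.040, against 0.20). BRD3 was most like ERC1 and NCOR1, the nuclear receptor corepressor (0.026 and 0.032, against 0.14), and BRD2 like ERMAP and FBXL12 (0.045 and 0.046, against 0.10). KAT2A (RCE1 and METTL17) and KAT7 (CRMP1 and IGF2BP2) varied so little, by 0.032 and 0.045, that likeness to other genes at 0.024 to 0.028 says little. With 6 libraries and 9858 candidate genes close matches occur for many patterns.

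The partners of these enzymes and readers did not pass the test either. Of the 149 tested genes in 15 further lists of complex partners, related families and marker genes, 0 rose and 0 fell by limma at the threshold. No tested protein-coding gene passed it in this fit. The smallest adjusted p was 0.467, and 12 genes (8.05%, against 9.57% of all tested genes) had an unadjusted p under 0.05. The 14 other histone acetyltransferases had a median log2 fold change of 0.20, with 10 above 0, beside 0.034 over all tested genes. KAT6B, with 11.5 ± 2.34 FPKM in control and 13.8 ± 0.631 under I1, and GTF3C4, a subunit of the RNA polymerase III factor TFIIIC, at 10.6 ± 2.32 and 12.6 ± 1.58, were the most abundant of them. NAA60, an N-terminal acetyltransferase, had the smallest unadjusted p, with 4.63 ± 0.640 and 3.24 ± 0.379 FPKM (log2 fold change -0.41, adjusted p = 0.467). The median GC content of these 14 genes was 44.8%, and their median log2 fold change was 0.053 after the GC correction and 0.035 without control replicate 1.

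Of the scaffold and reader partners of KAT6A and KAT7, 9 were tested, 5 of them above 0, with a median of 0.025. BRD1, a scaffold of these complexes, had 15.2 ± 1.31 and 14.9 ± 0.186 FPKM, and MEAF6, a small shared subunit, 12.6 ± 0.753 and 14.6 ± 1.29 (log2 fold change 0.20, adjusted p = 0.481). The 23 tested SAGA and ATAC genes had a median of 0.023, with 12 above 0, which turned to -0.11 after the GC correction and to -0.025 without control replicate 1. WDR5, a WD-repeat subunit of ATAC, had 35.2 ± 1.77 and 32.6 ± 2.72 FPKM, and ATXN7L3, of the SAGA deubiquitinase module, 23.8 ± 0.817 and 20.03 ± 1.39 (log2 fold change -0.24, adjusted p = 0.467). The 13 genes of the NuA4/TIP60 complex had a median of 0.049, with 7 above 0, that turned to -0.092 under either setting. RUVBL2, an ATPase of that complex, had 68.5 ± 10.1 and 56.2 ± 4.68 FPKM, and MORF4L1 24.5 ± 6.93 and 27.5 ± 2.93. The 9 NSL and MSL partners of KAT8 had a median of -0.036, with 4 above 0. MCRS1, a subunit of the NSL complex, had 20.98 ± 1.59 and 17.4 ± 1.43 FPKM, with all I1 values lower, as for 8.74% of tested genes (log2 fold change -0.26, adjusted p = 0.467; -0.11 after the GC correction). HCFC1, a host cell factor, had 37.9 ± 5.79 and 36.2 ± 6.40 FPKM.

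For factors that bind CBP and p300 the median log2 fold change was -0.21, and 9 of the 13 tested lay below 0. CITED2, which binds both coactivators, had 101 ± 19.2 FPKM in control and 81.6 ± 13.7 with I1, lower in 3 of 3 pairs (log2 fold change -0.30, adjusted p = 0.486). MYB, whose activity in leukaemia depends on p300, had 56.6 ± 2.36 and 60.5 ± 3.22 FPKM. CRTC2, a CREB coactivator, had 15.1 ± 2.43 and 11.6 ± 0.527 (log2 fold change -0.34, adjusted p = 0.467). The median of this list was -0.087 after the GC correction and -0.12 without control replicate 1.

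BET cofactors and genes of P-TEFb and its regulators had a median of 0.34 over 15 tested genes, 10 of them above 0. ELL2, an elongation factor, had 1.83 ± 0.533 and 2.82 ± 0.182 FPKM (log2 fold change 0.45, adjusted p = 0.467). The kinase subunit CDK9 had 13.1 ± 0.925 and 12.9 ± 0.359, and its cyclin CCNT1 12.3 ± 3.21 and 15.5 ± 0.813. The most abundant genes, CHD4, a remodelling ATPase, and MEPCE, which caps 7SK RNA, had 92.0 ± 4.97 and 96.1 ± 6.43, and 61.6 ± 5.20 and 52.6 ± 0.201 FPKM. The median GC content of this list was 45.2%, and its median log2 fold change was 0.096 after the GC correction and 0.12 without control replicate 1. Bromodomain genes outside the BET family and the acetyltransferases had a median of 0.22 over 23 tested genes, 20 of them above 0, with a median GC content of 42.5%. That median was 0.12 after the GC correction and 0.082 without control replicate 1. TRIM28, a corepressor, had 199 ± 20.1 and 163 ± 5.20 FPKM, and BRWD1 5.29 ± 1.71 and 7.62 ± 0.159 (log2 fold change 0.49, adjusted p = 0.467). The 4 YEATS readers had a median of 0.15, with 3 above 0, which was 0.0064 after the GC correction. The abundant MLLT1, also called ENL, was the 1 below 0, with 39.1 ± 3.53 and 34.1 ± 1.63 FPKM. YEATS2 had 26.3 ± 5.91 and 27.3 ± 5.17, and YEATS4 17.3 ± 2.21 and 20.9 ± 2.56. The log2 fold change of YEATS4 was 0.25 (adjusted p = 0.467), and -0.0078 after the GC correction.

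Genes known to fall with BET inhibitors in blood cancer cells showed a median of 0.23 on the log2 scale for the 5 tested of 8. It was 0.11 after the GC correction, 0.11 with I1 replicate 1 left out, and 0.34 with control replicate 1 left out. MYC had 391 ± 129 FPKM in control and 337 ± 48.9 with I1, with a log2 fold change of -0.18 that was 0.078 without control replicate 1. CDK6, a cell cycle kinase, had 61.4 ± 17.9 and 94.9 ± 9.19 FPKM (log2 fold change 0.66, adjusted p = 0.467), and BCL2, which protects cells from apoptosis, 4.32 ± 0.252 and 6.36 ± 0.776 (0.46, adjusted p = 0.467). For both genes all I1 values were higher, as for 12.9% of all tested genes. The log2 fold changes of CDK6 and BCL2 were 0.36 and 0.35 after the GC correction, and 0.40 and 0.43 without control replicate 1. Of the genes known to rise with BET inhibitors, HEXIM1, the inhibitor of P-TEFb, had 28.96 ± 3.52 and 28.3 ± 3.07 FPKM (log2 fold change -0.030, adjusted p = 0.919), and the histone gene HIST1H2BK 16.1 ± 2.53 and 13.3 ± 0.959. The histone gene HIST2H2BE had 0.608 ± 0.234 and 1.24 ± 0.191 FPKM (log2 fold change 0.49, adjusted p = 0.467). All its control values were below 1 FPKM (0.447 to 0.876) and all its I1 values above (1.02 to 1.36). It thus passed the filter on low values only through the group where it is high, so its rise is not independent of that filter. The median over the 4 tested of 6, HIST2H2BE included, was -0.14, and -0.067 after the GC correction.

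Genes of acetyl-CoA supply, the cofactor of all acetyltransferases, had a median of -0.082 over 10, with 8 below 0. ACLY, which makes acetyl-CoA from citrate, had 114 ± 33.0 and 106 ± 25.3 FPKM, and SLC25A1, the citrate carrier, 92.5 ± 28.6 and 68.4 ± 13.6 (log2 fold change -0.40, adjusted p = 0.494), both lower in 3 of 3 pairs. The groups overlapped for both genes. The GC correction brought the log2 fold change of SLC25A1 to -0.17, and among the genes named above those of NAA60, ATXN7L3 and CRTC2 to -0.25, -0.11 and -0.17, and those of MEAF6, ELL2 and BRWD1 to -0.033, 0.17 and 0.14. It brought TRIM28 from -0.28 to -0.067, MEPCE from -0.22 to -0.029, RUVBL2 from -0.28 to -0.10 and MLLT1 from -0.19 to 0.021. Without control replicate 1 the log2 fold changes of CITED2, CRTC2 and SLC25A1 were -0.18, -0.22 and -0.21, and those of ELL2 and BRWD1 0.29 and 0.25.

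**Figure D4:**
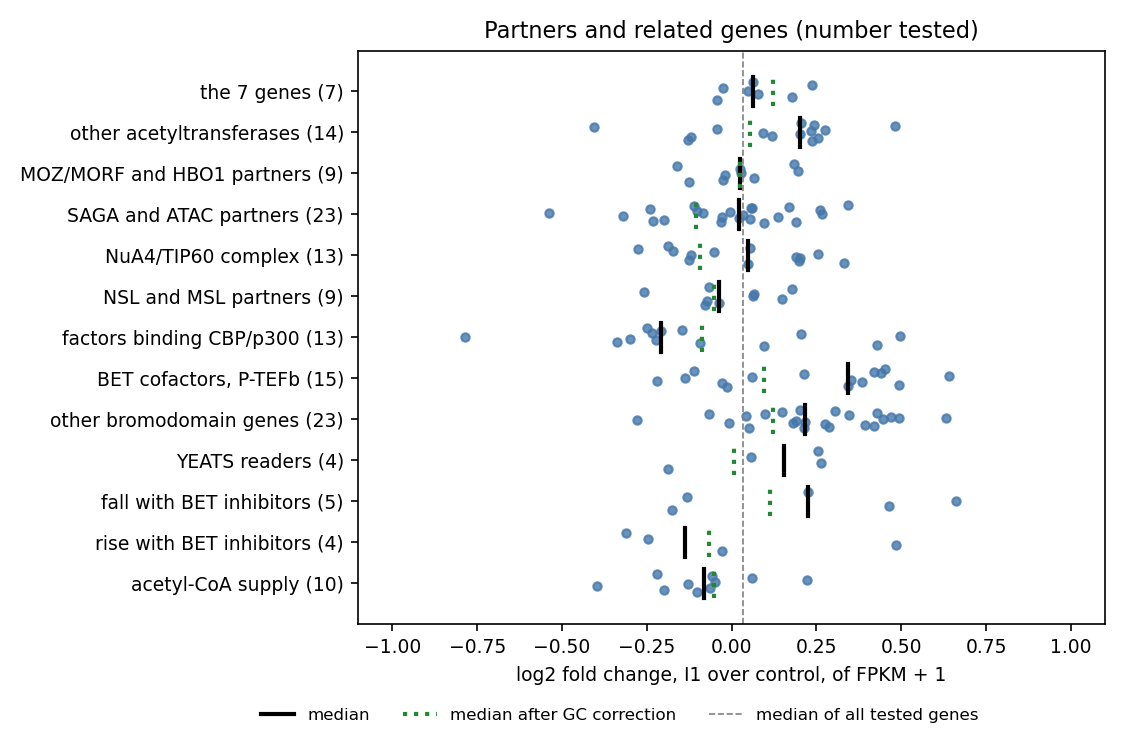
Log2 fold change of FPKM + 1, I1 over control, of each tested gene (points) in the 7 genes and 12 lists of partners and related genes, with the median (black), the median after GC correction (green, dotted) and the median of all tested genes (dashed, 0.034). The median of BET cofactors goes from 0.34 to 0.096 and that of other acetyltransferases from 0.20 to 0.053 after the correction.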

How the data were processed

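Trizol RNA went into stranded mRNA libraries, per the labels' protocols. The tools named are HISAT2, HTSeq, Cufflinks and Trimmomatic and the build is hg38, per the submitters' processing notes; for versions, roles, annotation and strand in counting the sources used here say nothing. FPKM values were deposited by the authors as 1 table (29810 genes, 6 columns), and its columns were matched to samples by title. Other lines and another compound appear in the name of that table, so the match rests on its column names. Sample columns not used numbered 0. Symbols, coordinates (1-based, hg38) and exon lengths came from GENCODE release 29 for 29703 genes. With these lengths the FPKM of 95.9% of genes converted to whole reads everywhere, to within 0.05 reads, which gave library totals of 16391000 to 18204000. KAT6A did not, so no read numbers are given for it. Floors cover counting error only.

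The 2 groups were compared with limma 3.58.1 (R 4.3.3), using log2(FPKM + 1), an intensity trend and the 11913 genes that reached 1 FPKM in 3 or more libraries, with Benjamini-Hochberg adjustment over all of them. The added 1 makes fold changes of low genes too small. Tables and figures used Python 3.11.15. The GC correction took a loess curve (span 0.3) of each library's deviations on the GC content of the longest transcript. Genes named from the lists come from the 2 of highest mean FPKM and the one of smallest p in each, though not all of these are named. Some others, named as parts of a complex, were chosen after their values were seen. The 7 genes and the lists were chosen with earlier results of these data known. On simulated data for 11001 genes the fit found 97.0% of the 4-fold changes and 26.2% of the 2-fold changes (91.4% by adjusted p alone), with 1 false call per simulation. The simulation gave every gene the same dispersion and changed only genes with many reads. It held no GC trend, no outlying library and no pairing of replicates. These rates therefore check the fit and do not give its power or false calls on the real libraries.

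In both groups the titles carry numbers from 1 to 3. Same-numbered samples deviated together from their group means (correlations 0.476, 0.457 and 0.412), so the numbers pair the samples. The tests shown are without the block on that number, unless it is named. Under the block 3227 of the 11913 tested genes had an unadjusted limma p under 0.05, against 1140 without it. Among the 7 genes the smallest unadjusted limma p under the block alone was 0.092, for KAT6A. With the block and the GC correction together it was 0.039, for KAT2A. Replicates differed beyond counting noise in every comparison within a group (chi-square divided by its degrees of freedom, 19.2 to 65.1).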

Additional observations from a re-analysis of the deposited data

How the results depend on the processing

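The 17 alternatives were other pseudocounts, filters and scalings, the replicate number as a block, a GC correction, protein-coding genes alone, array weights and leaving out each library. None of the 7 genes passed the threshold where it was tested; CREBBP lay below the filter of a mean of at least 5 FPKM and has no test there. The direction turned for BRD2 with the GC correction, with or without the block (0.058), and without I1 replicate 1 (0.012), within -0.14 to 0.012 over the left-out libraries. It turned for EP300 with array weights (-0.14) and without control replicate 1, over a range of -0.047 to 0.22. It turned for CREBBP under quantile normalization (-0.043), with array weights (-0.17) and without control replicate 1 or I1 replicate 3, over -0.070 to 0.20. KAT2A turned with the GC correction, with or without the block (0.15), and with array weights (0.0023), and KAT7 with the GC correction (-0.035, with or without the block). BRD3 and KAT6A kept their direction in all 17, over 0.040 to 0.26 and 0.066 to 0.33. Of the log2 ratios, the GC correction, with or without the block, turned EP300 to CREBBP (-0.046), KAT2A to KAT2B (0.054) and KAT7 to KAT5 (-0.065). Without I1 replicate 1 EP300 to CREBBP was -0.0093 (range 0.096 at most), and without I1 replicate 3 KAT6A to KAT6B was 0.012 (range -0.035 at least). The cause of these turns was not tested.

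Over all genes 4 passed, none of them protein-coding (1140 at an unadjusted p under 0.05). By limma 0 passed with a pseudocount of 0.1 or 0.5, no filter, a mean of at least 5 FPKM, the GC correction or protein-coding genes alone (590 to 1726 at an unadjusted p under 0.05). Quantile normalization gave 2, the block with GC correction 1, the block alone 6, array weights 14, and the left-out libraries 0 to 2. The block changed no call of the 7 genes (adjusted p 0.237 to 0.848). List medians were also computed under these settings, a choice made after seeing the data. Genes of few reads, such as BRDT, are limited by depth.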
